A study of Mus musculus with 12 samples.

Results

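The genes described here are 45 genes of the lysosome and of autophagy, among the 41388 Ensembl gene IDs of each deposited count table. They were chosen by symbol, with no measured value in the rule but with earlier results of these data known. They comprise Gpnmb, 10 cathepsin and legumain genes, 7 genes of other hydrolases and their cofactors and 8 genes of lysosomal membrane and sorting proteins. The others are the 4 MiT transcription factors, 7 V-ATPase subunits and 8 autophagy genes. All 45 were found and all 45 passed the filter on low counts. RNA was sequenced from thioglycolate-elicited mouse peritoneal macrophages, cells drawn into the abdominal cavity by an irritant broth, taken on day 4 and stimulated the next day for 8 h. There were 4 groups of 3 libraries. They were PPARg knockout macrophages (as labelled) with palmitate plus LPS, LysM-Cre control macrophages with palmitate plus LPS, PPARg knockout macrophages (as labelled) with vehicle, and LysM-Cre control macrophages with vehicle. Palmitate, a saturated fatty acid, was given at 250 uM and LPS, the endotoxin of Gram-negative bacteria, at 100 ng/ml, and the vehicle was BSA in PBS. The labels call the controls Cre or wild type and give neither the mice's age and sex nor the floxed allele, and they do not say whether the libraries of a group came from separate mice, so p-values measure the spread between these libraries, which may be technical. LysM-Cre, which the controls carry too, is a recombinase driven from the lysozyme locus Lyz2, active in macrophages and neutrophils.

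Lysosomes are the acidic compartment in which macrophages break down what they engulf and what autophagy delivers. The V-ATPase pumps protons into them, hydrolases such as the cathepsins cut proteins, lipids and glycans, and membrane proteins such as Lamp1 and Lamp2 shield and connect the compartment. Many of these genes carry short E-box motifs in their promoters that the MiT factors Tfeb, Tfe3, Mitf and Tfec bind, and autophagy wraps cytoplasmic cargo in membranes that fuse with the lysosome.

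Library totals ran between 17960457 and 22696385 counts, and 12914 genes were tested. The first principal component, with 86.2% of the variance, separated the treatments. Vehicle labelled-knockout replicate 1 stood apart from the other libraries of its group. Its second-component score was 31.8, against -6.93 and -10.0 for the others, and relative to them its counts were higher in short genes (median log2 difference 0.25 in the third of genes with the shortest exons) and lower in long ones (-0.19 in the longest). The targeted gene went against the labels in vehicle, where Pparg had 111, 90.9 and 95.8 normalised CPM in labelled-knockout libraries and 62.3, 61.5 and 60.9 in control libraries (log2 difference 0.69 ± 0.11, adjusted p = 0.00124), and with palmitate plus LPS it had 3.59, 5.04 and 4.73 against 3.63, 2.86 and 4.14. A gene-level count includes exons outside a deletion, so these values do not check recombination, and the libraries are called labelled knockout throughout. All 7 macrophage markers were present, with summed levels of 2946 to 3149 normalised CPM in stimulated labelled-knockout, 3195 to 3515 in stimulated control, 1579 to 1860 in vehicle labelled-knockout and 1463 to 1486 in vehicle control libraries.

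Together the 45 genes took up a large share of the RNA. They held 10.3, 10.2 and 10.2% of all counts in labelled-knockout libraries with palmitate plus LPS, against 21.4, 21.3 and 21.1% in labelled-knockout libraries with vehicle. In control libraries they held 9.81, 9.92 and 9.85% with palmitate plus LPS, against 20.7, 21.0 and 21.7% with vehicle. The stimulated and vehicle libraries did not overlap in either genotype (exact permutation test, two-sided p = 0.1 in each, the smallest that 3 against 3 allows). Between genotypes the share differed by 0.387 percentage points with palmitate plus LPS (exact permutation p = 0.1) and by 0.097 points with vehicle (exact permutation p = 0.9). The cathepsins and legumain made up the greatest part, at a mean of 5.09% of counts in stimulated labelled-knockout, 5.13% in stimulated control, 10.6% in vehicle labelled-knockout and 10.4% in vehicle control libraries. A few abundant genes weigh heavily in the share. In vehicle controls Gpnmb held a mean of 5.54%, Ctsb 4.36%, Ctsd 3.14%, Psap 2.22% and Ctss 1.20%. The autophagy genes went the other way, at a mean of 0.144% in stimulated and 0.112% in vehicle labelled-knockout libraries. In control libraries they held 0.181% when stimulated and 0.115% with vehicle. In bulk RNA, fewer cells of a type and less RNA per cell cannot be told apart.

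**Figure D1:**
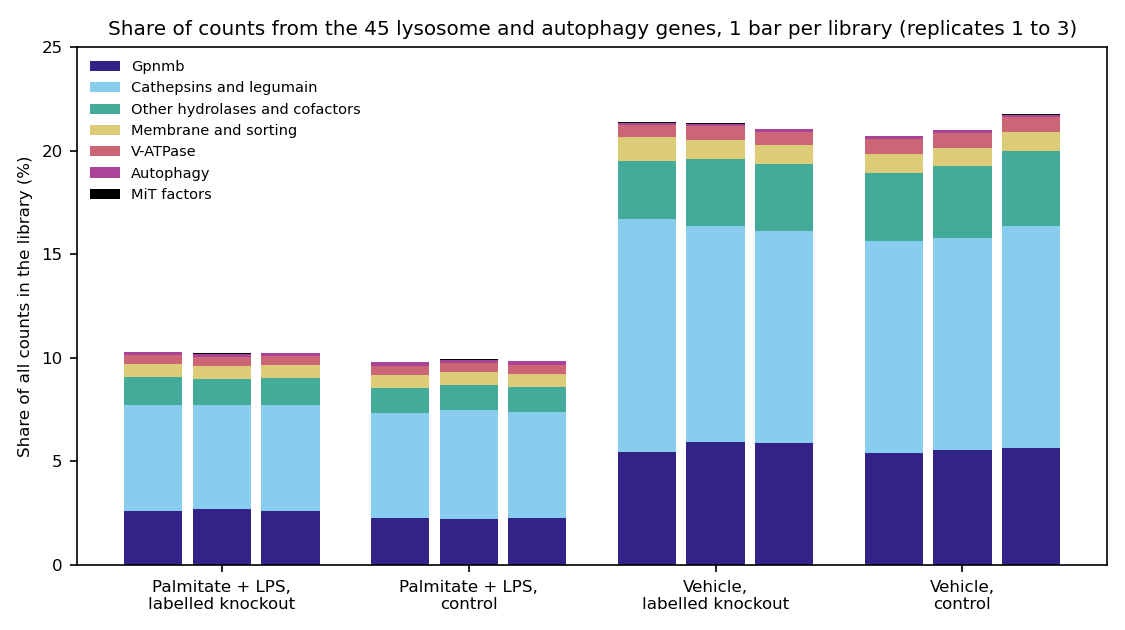
Share of each library's counts (%, vertical axis) taken by the 45 genes, 1 stacked bar per library, coloured by gene role. The 6 libraries with palmitate plus LPS lie between 9.81 and 10.3%, and the 6 vehicle libraries between 20.7 and 21.7%.

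Gpnmb (ENSMUSG00000029816, GRCm38 chr6:49036518-49058182, plus strand) encodes a membrane glycoprotein of lysosome-related compartments that is abundant in lipid-laden macrophages. It had 24401, 25116 and 24902 normalised CPM in stimulated control libraries, against 45685, 48006 and 51306 in vehicle control libraries. In labelled-knockout libraries it had 30838, 31197 and 30128 with palmitate plus LPS, against 53088, 52059.5 and 50552 with vehicle. It held more counts than any other gene in all 6 vehicle libraries and came second in all 6 stimulated ones. The stimulated libraries were lower than the vehicle libraries without overlap in both genotypes. The log2 fold changes were -0.96 ± 0.07 in controls (adjusted p = 8.25e-09) and -0.76 ± 0.07 in the labelled knockout (adjusted p = 1.32e-07). On the scale of TMM-normalised CPM per kilobase of exon, it averaged 12726 in vehicle controls, where Ctsd (10883), Ctsb (8031), Ctss (7701) and Psap (7053) followed, and Sort1 (2.45), Wipi1 (2.13) and Ulk1 (1.78) were the lowest of the 45.

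With palmitate plus LPS, most of the 45 genes fell and a few rose. In controls 7 rose and 27 fell, with 11 not passing the test. That was 15.6% and 60.0% of the 45, where 32% of all tested genes rose and 34.7% fell. In the labelled knockout 9 rose and 30 fell, with 66.7% of them falling, where 33.7% of all tested genes rose and 35.6% fell. The median log2 fold change of the 45 was -0.51 in controls and -0.38 in the labelled knockout, where that of all genes was -0.05 and -0.06. The responses in the 2 genotypes rest on separate libraries. In both, 25 of the 45 fell and 6 rose, 0 were called in opposite directions, 3 were called in controls only, 8 in the labelled knockout only and 3 in neither. Of all 12914 tested genes, 3675 fell and 3489 rose in both, and 70 were called in opposite directions. Another 1379 were called in controls only and 1722 in the labelled knockout only, with 2579 in neither. Across the 45 genes, which are not independent replicates, the log2 responses correlated with Pearson's r = 0.92, and across all genes with r = 0.94. With libraries scaled by their total counts instead of TMM, the median of all genes lay lower by 0.33 in controls and 0.37 in the labelled knockout, and 5 of the 45 rose and 37 fell in controls, and 4 rose and 34 fell in the labelled knockout. Under that scaling 2646 genes rose and 6413 fell in controls, against 4133 and 4480 under TMM, and 2677 rose and 6568 fell in the labelled knockout, against 4356 and 4600.

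**Figure D2:**
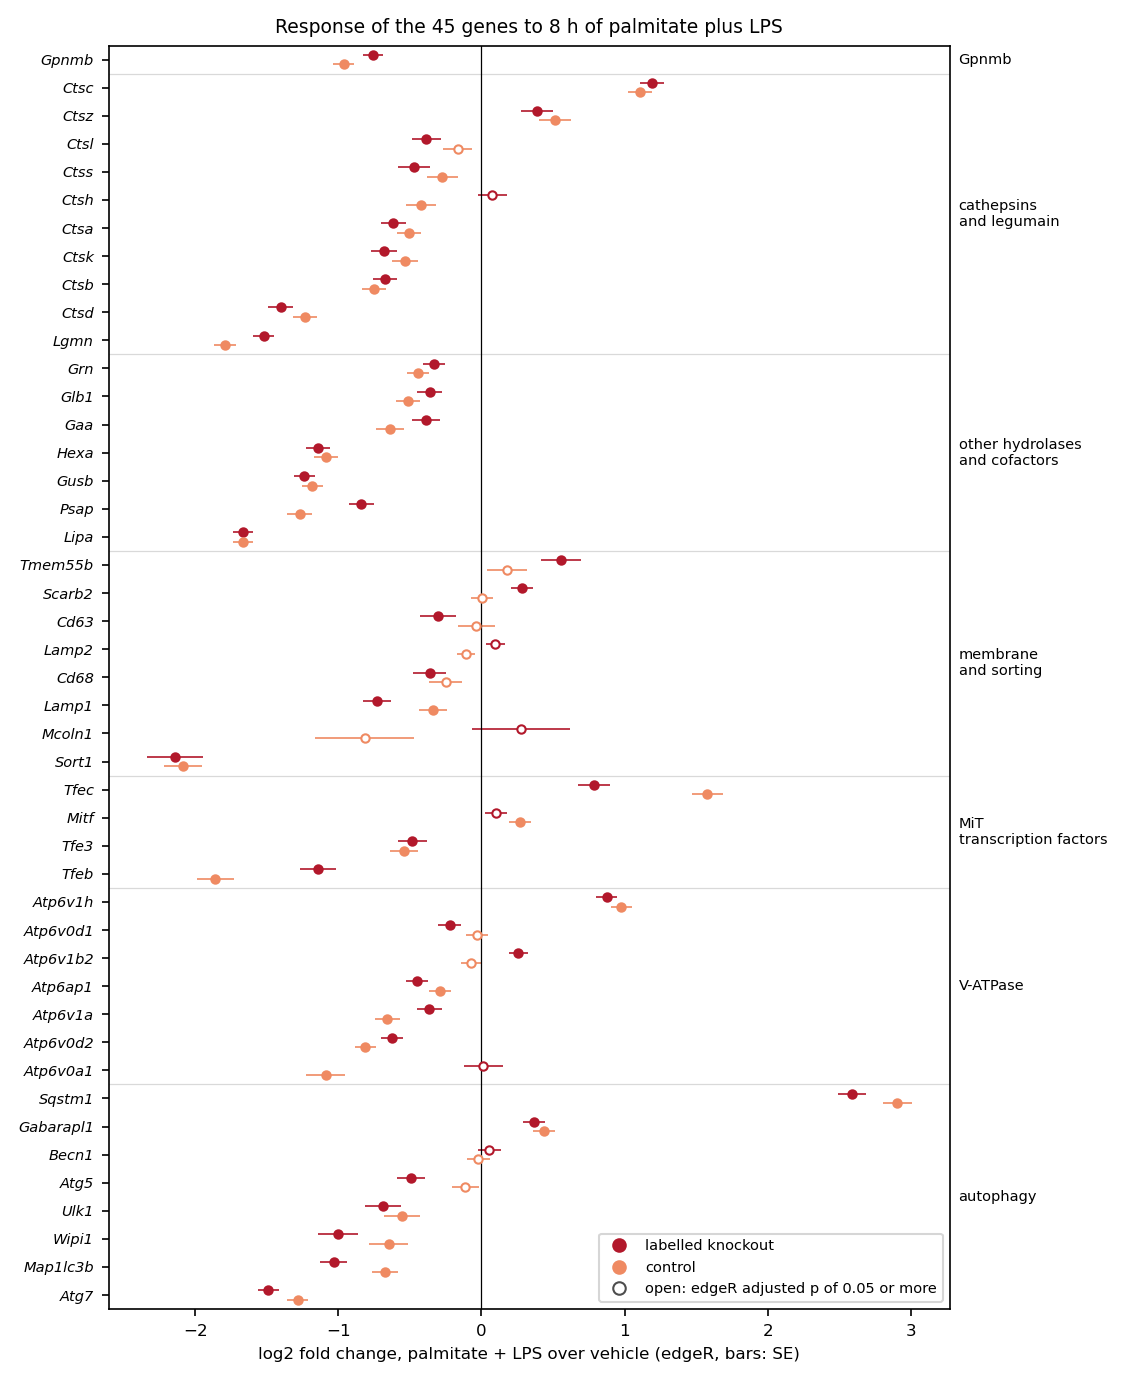
Log2 fold change of each of the 45 genes, palmitate plus LPS over vehicle (horizontal axis, edgeR, bars are standard errors), grouped by role, with the labelled knockout above the control. Filled points passed an adjusted p of 0.05. Sqstm1 lies farthest right at 2.59 and 2.91, and Sort1 farthest left at -2.14 and -2.08.

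Among the cathepsins and legumain, 2 of 10 rose and 7 fell in each genotype. Legumain, the asparagine endopeptidase that matures cathepsins, had 565, 597 and 567 normalised CPM in stimulated control libraries, against 1896, 1985 and 2109 in vehicle control libraries. In the labelled knockout Lgmn had 688, 609 and 663 with palmitate plus LPS, against 1899.5, 1859 and 1865 with vehicle. Both genotypes were lower with stimulation in every library, with log2 fold changes of -1.79 ± 0.08 in controls and -1.52 ± 0.07 in the labelled knockout (adjusted p = 5.31e-12 and 3.37e-11). Ctsd, the main aspartic protease of the lysosome, had 11198, 12212 and 11622 in stimulated against 26108, 26832 and 29303 in vehicle control libraries, and 9502, 9373 and 9378 in stimulated against 27823, 23953 and 22837 in vehicle labelled-knockout libraries. It fell by 1.23 in controls and by 1.40 in the labelled knockout. The cysteine protease Ctsb fell by 0.75 in controls and 0.68 in the labelled knockout, Ctsk, the collagen-cutting cathepsin of osteoclasts, by 0.54 and 0.68, and the serine carboxypeptidase Ctsa by 0.51 and 0.61.

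Against that direction, Ctsc, the dipeptidyl peptidase that activates granule proteases, had 330.1, 364 and 366 normalised CPM in stimulated control libraries, against 159.7, 172 and 160.2 in vehicle control libraries. In the labelled knockout it had 425, 373 and 384 with palmitate plus LPS, against 177, 182 and 159 with vehicle. Every stimulated library was above every vehicle library, and Ctsc rose by 1.11 ± 0.08 (adjusted p = 6.73e-09) in controls and 1.19 ± 0.08 (adjusted p = 2.45e-09) in the labelled knockout. The carboxypeptidase Ctsz rose by 0.52 in controls and 0.39 in the labelled knockout, where the call was lost under total-count scaling. Ctss, the cathepsin that trims the MHC class II invariant chain, fell by 0.47 in the labelled knockout (-0.31 without vehicle labelled-knockout replicate 1). In controls its fall of 0.27 (adjusted p = 0.039) was not called under 11 of 18 alternatives, where the adjusted p went up to 0.141. The cysteine protease Ctsl fell by 0.38 in the labelled knockout (-0.24 without vehicle labelled-knockout replicate 1) and stood at -0.16 (adjusted p = 0.168) in controls, where it passed the test without vehicle labelled-knockout replicate 1 (-0.16, adjusted p = 0.0177).

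All 7 of the other hydrolases and cofactors fell in both genotypes, with medians of -1.08 in controls and -0.84 in the labelled knockout. Lipa, the acid lipase that frees cholesterol and fatty acids from engulfed lipoproteins, had 1397, 1443 and 1503 normalised CPM in stimulated control libraries, against 4522, 4554 and 4727 in vehicle control libraries. In the labelled knockout it had 1234, 1199.8 and 1263 with palmitate plus LPS, against 4037, 3913 and 3779.6 with vehicle. All stimulated libraries lay below all vehicle libraries, and the log2 fold change was -1.67 ± 0.07 in controls and -1.67 ± 0.07 in the labelled knockout (adjusted p = 5.12e-12 and 4.57e-12). The glycosidases Gusb, which cuts glucuronides, and Hexa, an enzyme of ganglioside breakdown, fell by 1.18 and 1.08 in controls and by 1.24 and 1.14 in the labelled knockout. Psap, the precursor of the saposins that present lipids to hydrolases, fell by 1.27 in controls and 0.84 in the labelled knockout. The acid glucosidase Gaa, the galactosidase Glb1 and progranulin (Grn) fell least, by 0.64, 0.51 and 0.44 in controls and by 0.38, 0.36 and 0.33 in the labelled knockout.

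The 8 membrane and sorting genes had medians of -0.18 in controls and -0.10 in the labelled knockout. Among them, Sort1 had the greatest fall of the 45 in both, by 2.08 and 2.14. In controls 2 fell and 0 rose, and in the labelled knockout 4 fell and 2 rose. Lamp1, a heavily glycosylated protein of the lysosomal membrane, had 231, 259 and 245 normalised CPM in stimulated and 309, 304 and 316 in vehicle control libraries, and 243, 230.5 and 229 in stimulated and 461, 333 and 373 in vehicle labelled-knockout libraries. It fell in both genotypes, by 0.34 in controls and 0.73 in the labelled knockout. Lamp2, the partner of Lamp1 that also serves chaperone-mediated autophagy, passed the test in neither, at -0.11 in controls and 0.10 in the labelled knockout, a sign that turned under total-count scaling. Cd68, the macrophage sialomucin, fell by 0.36 in the labelled knockout (-0.18 without vehicle labelled-knockout replicate 1) and stood at -0.25 (adjusted p = 0.0699) in controls, where it passed without vehicle labelled-knockout replicate 1 (-0.25, adjusted p = 0.00105) and without replicate 3. The tetraspanin Cd63 fell by 0.30 in the labelled knockout (adjusted p = 0.0472), a call that 14 of 18 alternatives lost. Without vehicle labelled-knockout replicate 1 it was -0.08. Scarb2, the receptor that carries glucocerebrosidase to lysosomes, rose by 0.29 in the labelled knockout, with the sign turned under total-count scaling. Tmem55b, which links lysosomes to dynein transport, rose by 0.56 there, a call lost under total-count scaling. Its exons share 19.5% of their bases with Apex1 on the opposite strand, and the strand setting of the counting is not given. The calcium channel gene Mcoln1 varied most in vehicle labelled-knockout libraries, at 19.2, 44.5 and 66.1, against 48.6, 56.3 and 52.8 in stimulated ones. Control libraries had 52.1, 32.1 and 31.7 when stimulated and 72.8, 67.9 and 63.2 with vehicle. Neither response of Mcoln1 passed the test (-0.82 ± 0.34 in controls, adjusted p = 0.0555, and 0.28 ± 0.34 in the labelled knockout, a sign that turned to -0.12 under total-count scaling). Without vehicle labelled-knockout replicate 1, the lowest of the 12, the control response was called (-0.82, adjusted p = 0.0115) and that of the labelled knockout was -0.07.

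Of the 7 V-ATPase subunits, 1 rose and 4 fell in controls, and 2 rose and 4 fell in the labelled knockout. Atp6v1h, the regulatory subunit of the cytosolic V1 sector, had 708, 681 and 735 normalised CPM in stimulated and 351, 359.5 and 368 in vehicle control libraries, and 718, 778 and 756 in stimulated and 437, 409.6 and 382 in vehicle labelled-knockout libraries. The groups did not overlap, and it rose by 0.98 ± 0.07 in controls and 0.87 ± 0.07 in the labelled knockout (adjusted p = 8.74e-09 and 2.93e-08). The V1 subunit Atp6v1a, which carries the catalytic site, fell by 0.66 in controls and 0.36 in the labelled knockout. In the membrane-bound V0 sector, Atp6v0d2, an isoform of osteoclasts and macrophages, fell by 0.81 and 0.62, while the broadly expressed isoform Atp6v0d1 stood at -0.03 (adjusted p = 0.75) in controls and fell by 0.22 in the labelled knockout (adjusted p = 0.0224, lost with only the groups compared and without stimulated labelled-knockout replicate 1 or 3, up to 0.0891, and -0.15 without vehicle labelled-knockout replicate 1). The accessory protein Atp6ap1 fell by 0.29 in controls and 0.45 in the labelled knockout.

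Of the 8 autophagy genes, 2 rose and 4 fell in controls, and 2 rose and 5 fell in the labelled knockout. Sqstm1, or p62, is the receptor that ties ubiquitinated cargo to autophagosomes. It had 1399, 1242 and 1353 normalised CPM in stimulated control libraries, against 176, 169 and 187 in vehicle control libraries. In the labelled knockout Sqstm1 had 1024, 1290.0 and 1066 with palmitate plus LPS, against 195, 172 and 195 with vehicle. All stimulated libraries were far above all vehicle libraries, a rise of 2.91 ± 0.10 in controls and 2.59 ± 0.10 in the labelled knockout (adjusted p = 4.59e-13 and 1.52e-12), the greatest among the 45 in both. Gabarapl1, a membrane tag of the LC3 family, rose by 0.44 in controls and 0.37 in the labelled knockout, but neither was called with total-count scaling, and the sign in the labelled knockout turned. Its relative Map1lc3b, the gene of LC3B, fell by 0.67 in controls and 1.03 in the labelled knockout. Atg7, the enzyme that activates both kinds of tag for conjugation, had 78.6, 74.5 and 77.4 in stimulated and 179.5, 189.6 and 192 in vehicle control libraries, and 69.8, 69.9 and 63.3 in stimulated and 186, 199 and 185 in vehicle labelled-knockout libraries. No library of one treatment overlapped with the other, and the log2 fold change of Atg7 was -1.28 ± 0.07 in controls and -1.49 ± 0.07 in the labelled knockout (adjusted p = 2.61e-10 and 3.91e-11). The starting kinase Ulk1 and the lipid-binding protein Wipi1 fell in both, by 0.56 and 0.65 in controls and by 0.69 and 1.00 in the labelled knockout. The conjugation partner Atg5 fell in the labelled knockout, by 0.49, and stood at -0.11 in controls. Becn1, a subunit of the lipid kinase that seeds autophagosomes, did not pass the test in either, at -0.02 in controls and 0.05 in the labelled knockout. Under total-count scaling Becn1 was called lower in both (-0.35 and -0.31). Exons on the opposite strand share 43.9% of the Becn1 bases (Cntd1), 17.3% of those of Sqstm1 (Mrnip) and 16.2% of those of Ctsb (Fdft1).

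In controls, the 10 genes that fell under total-count scaling but not under TMM were Ctsl, Lamp2, Cd63, Cd68, Scarb2, Mcoln1, Atp6v0d1, Atp6v1b2, Atg5 and Becn1. Mitf and Gabarapl1 were no longer called higher. The rises of Ctsz in controls (0.19), of Atp6v1h in controls (0.65) and the labelled knockout (0.51) and of Tfec in the labelled knockout (0.42) were smaller under that scaling and still called.

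The MiT factors did not move together. Tfeb, the member best known for switching on lysosomal genes, had 13.2, 13.4 and 11.7 normalised CPM in stimulated control libraries, against 45.5, 46.3 and 46.8 in vehicle control libraries. In the labelled knockout Tfeb had 15.3, 16.1 and 17.3 with palmitate plus LPS, against 28.8, 34.4 and 44.1 with vehicle. It was lower with stimulation in every library, with log2 fold changes of -1.86 ± 0.13 in controls and -1.14 ± 0.13 in the labelled knockout (adjusted p = 3.24e-09 and 8.41e-07). Tfec, the member restricted mainly to macrophages, went the other way. Tfec (ENSMUSG00000029553, GRCm38 chr6:16833381-16898441, minus strand) had 25.6, 29.1 and 30.9 in stimulated and 10.9, 8.80 and 8.88 in vehicle control libraries, and 14.5, 16.0 and 16.3 in stimulated and 9.01, 8.83 and 9.31 in vehicle labelled-knockout libraries. All stimulated libraries were above all vehicle libraries, and Tfec rose by 1.58 ± 0.11 in controls and 0.79 ± 0.11 in the labelled knockout (adjusted p = 2.76e-09 and 1.28e-05). Tfe3 had 45.3, 43.5 and 44.9 in stimulated and 66.2, 67.6 and 60.6 in vehicle control libraries, and 44.9, 44.3 and 38.7 in stimulated and 50.3, 62.7 and 65.1 in vehicle labelled-knockout libraries. These groups did not overlap, and Tfe3 fell by 0.54 in controls and 0.48 in the labelled knockout. Mitf had 69.0, 70.2 and 65.5 in stimulated and 58.8, 56.1 and 55.1 in vehicle control libraries, and 62.5, 64.5 and 63.8 in stimulated and 55.3, 58.5 and 63.9 in vehicle labelled-knockout libraries. It rose by 0.27 in controls and stood at 0.10 (adjusted p = 0.248) in the labelled knockout, and both signs turned under total-count scaling, to -0.07 and -0.27.

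**Figure D3:**
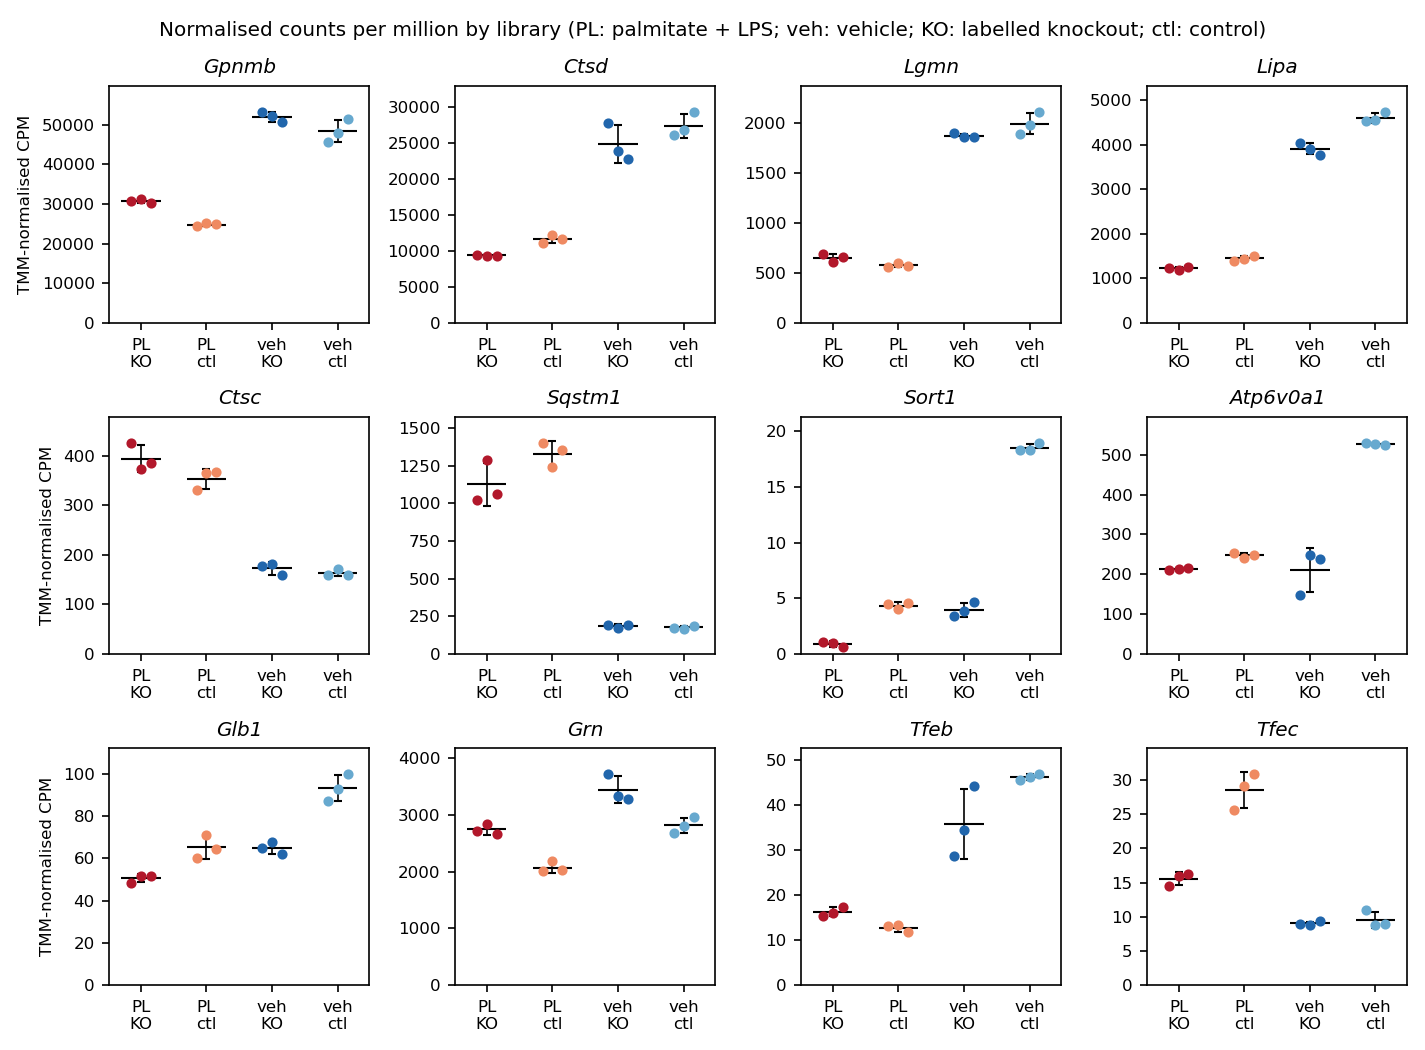
Normalised CPM (vertical axes, linear from 0) of 12 of the genes in each of the 12 libraries. Points are libraries, horizontal lines are means and bars are SD (n = 3). Sort1 lies between 3.46 and 4.66 in vehicle labelled-knockout libraries against 18.3 to 18.9 in vehicle controls, and Sqstm1 lies above 1000 in every stimulated library and below 200 in every vehicle library.

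The promoter letters that MiT factors bind can be read in several of these genes. Promoters of 38 of the 45 genes were in the RefSeq table (GRCm38.p6, 250 bases before to 50 after each start). The 8-letter form TCACGTGA occurred in 6 of the 38 (15.8%), against 1.12% of the 27025 genes of the table. Its core CACGTG, which lies within it, occurred in 13 (34.2%), against 8.09%, and TCATGTGA in 2 (5.26%), against 1.15%. Both strands were searched. Of the 143 genes of the other lists described below, 109 had a promoter in the table. TCACGTGA occurred in 7.34% of these, CACGTG in 22.0% and TCATGTGA in 8.26%, the last a higher share than in the 38. The motifs were searched because many lysosomal genes are known to carry them, so a higher share than over all genes is no finding of these data. TCACGTGA was in Ctsa, Ctsd, Mcoln1, Tmem55b, Atp6v1a and Atp6v0d1, where it spans the start, and Lamp1 held 4 copies of CACGTG. At most 30 bases around the match are shown for the 5 genes with TCACGTGA wholly before the start, and for 2 of the 4 copies of CACGTG in Lamp1, with the match in capitals.
Ctsa (chr2:164833749-164833772, plus strand): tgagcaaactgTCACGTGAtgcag
Ctsd (chr7:142387908-142387937, minus strand): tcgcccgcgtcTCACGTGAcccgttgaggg
Mcoln1 (chr8:3500462-3500491, plus strand): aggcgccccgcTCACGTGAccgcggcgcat
Tmem55b (chr14:50930886-50930915, minus strand): gggccagcctgTCACGTGAgcggggcggca
Atp6v1a (chr16:44139373-44139402, minus strand): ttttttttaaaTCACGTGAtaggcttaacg
Lamp1 (chr8:13159096-13159125, plus strand): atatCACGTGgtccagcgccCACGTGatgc
The response of the genes with TCACGTGA was not uniform. Ctsa, Ctsd and Atp6v1a fell with palmitate plus LPS in both genotypes, Atp6v0d1 fell and Tmem55b rose in the labelled knockout, and Mcoln1 passed the test in neither. A match in letters is a description and not a measured binding site.

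Between genotypes in vehicle, 1 of the 45 genes was higher and 5 were lower in the labelled knockout (2.22% and 11.1%), where 2.12% of all tested genes were higher and 1.69% lower. Sort1 (ENSMUSG00000068747, GRCm38 chr3:108284091-108361511, plus strand) encodes sortilin, a receptor that carries hydrolase cofactors and progranulin to lysosomes. It had 3.46, 3.82 and 4.66 normalised CPM in labelled-knockout libraries, against 18.3, 18.3 and 18.9 in control libraries. When stimulated it had 1.12, 0.975 and 0.63 in labelled-knockout libraries, against 4.47, 4.04 and 4.56 in control libraries. In both treatments the labelled knockout was lower in every library, with log2 differences of -2.21 ± 0.13 (adjusted p = 1.98e-07) with vehicle and -2.27 ± 0.20 (adjusted p = 2.27e-06) with palmitate plus LPS. Sort1 also fell with stimulation, by 2.08 in controls and 2.14 in the labelled knockout, and the 2 responses differed by -0.06 ± 0.23 (adjusted p = 0.889). The stimulated labelled-knockout value rests on 49 counts over 3 libraries, against 248 in stimulated controls, 275 in the vehicle labelled knockout and 1344 in vehicle controls.

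Atp6v0a1 (ENSMUSG00000019302, GRCm38 chr11:101009452-101063719, plus strand), the a1 isoform of the proton-channel subunit of the V0 sector, differed between genotypes in vehicle. It had 147, 247 and 239 normalised CPM in labelled-knockout libraries, against 529, 528 and 523 in control libraries. When stimulated it had 211, 213 and 216 in labelled-knockout libraries, against 254, 240.3 and 249 in control libraries. In vehicle the labelled knockout was lower without overlap, with a log2 difference of -1.32 ± 0.14 (adjusted p = 2.38e-05). In stimulated cells the difference was -0.22 ± 0.14 (adjusted p = 0.3). Control libraries fell by 1.09 with stimulation, and labelled-knockout libraries stood at 0.01 (-0.37 under total-count scaling, not called). Replicate 1 of the vehicle labelled knockout was the lowest of all 12 libraries. Without it the vehicle difference was -1.11, the difference with palmitate plus LPS was called (-0.22, adjusted p = 0.0023), and the labelled knockout fell with stimulation (-0.19, adjusted p = 0.00522).

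Glb1, the acid galactosidase used as a senescence stain, had 65.0, 67.7 and 62.1 normalised CPM in vehicle labelled-knockout libraries, against 87.1, 92.8 and 99.8 in vehicle control libraries. When stimulated it had 48.3, 51.7 and 51.5 in labelled-knockout and 60.2, 71.0 and 64.6 in control libraries. The labelled knockout was lower without overlap in both treatments, with log2 differences of -0.52 ± 0.08 (adjusted p = 0.00137) with vehicle and -0.37 ± 0.08 (adjusted p = 0.0078) with palmitate plus LPS. The second call was lost, at an adjusted p of 0.0504, without stimulated control replicate 2. Tmppe shares 7.31% of the Glb1 exon bases on the same strand. Progranulin (Grn), a lysosomal cofactor that sortilin and prosaposin carry, was higher in the labelled knockout. Grn had 3716, 3339 and 3282 in vehicle labelled-knockout and 2686, 2813 and 2956 in vehicle control libraries, and 2719, 2845 and 2667 in stimulated labelled-knockout and 2003, 2183 and 2029.8 in stimulated control libraries. The groups did not overlap in either treatment. The difference was 0.41 ± 0.08 (adjusted p = 0.00195) with palmitate plus LPS and 0.29 ± 0.08 (adjusted p = 0.0458) with vehicle. The vehicle call was lost under 12 of 18 alternatives, among them the removal of any vehicle control library, of vehicle labelled-knockout replicate 2 or of any stimulated library, with an adjusted p up to 0.238.

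In vehicle, Atp6v0d2 was also lower in the labelled knockout, with 1586, 1490.1 and 1338 normalised CPM against 1820.0, 1832 and 1914 in controls. The groups did not overlap, with a difference of -0.33 ± 0.08 (adjusted p = 0.0182), which was not called when any of the 3 vehicle control libraries was removed (adjusted p up to 0.0823). Scarb2 was lower, at -0.32 (adjusted p = 0.0277), a call that 8 of 18 alternatives lost, among them the removal of any vehicle control library, of vehicle labelled-knockout replicate 2 or of stimulated control replicate 3 (up to 0.164). None of the 10 cathepsins and legumain and none of the 8 autophagy genes passed the test in vehicle. Their differences ran between -0.14 and 0.39 and between -0.22 and 0.10. Without vehicle labelled-knockout replicate 1, 1 gene was higher and 9 were lower, among them Ctsd, Ctsk, Lipa and Gabarapl1, where 3.27% of all genes were higher and 2.72% lower.

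With palmitate plus LPS, 6 of the 45 genes were higher and 9 lower in the labelled knockout (13.3% of them higher), where 10% of all tested genes were higher and 6.1% lower. Higher were Ctsh, Grn, Atp6v1a, Gpnmb, Lamp2 and Atp6v1b2, and lower were Sort1, Tfec, Glb1, Ctsd, Atg5, Gabarapl1, Map1lc3b, Atp6v0d1 and Lipa. Tfec was lower, at -0.87 ± 0.11 (adjusted p = 4.98e-05), with every labelled-knockout library below every control library, and in vehicle the difference was -0.08 (adjusted p = 0.755). Gpnmb was higher by 0.31 ± 0.07 (adjusted p = 0.00858) with no overlap, and stood at 0.10 (adjusted p = 0.493) in vehicle. Ctsh, an aminopeptidase among the cathepsins, had 529, 464 and 486 normalised CPM in labelled-knockout and 339.8, 390.2 and 363 in control libraries. These did not overlap, and the difference was 0.44 ± 0.10 (adjusted p = 0.00926, and 0.0519 without stimulated labelled-knockout replicate 1). Atp6v1a had 1097, 1128 and 1155 in labelled-knockout and 935, 815 and 895 in control libraries. It was higher without overlap, by 0.35 ± 0.09 (adjusted p = 0.0122, not called without stimulated control replicate 2, without stimulated labelled-knockout replicate 3 or under total-count scaling, up to 0.0946). Ctsd was lower, at -0.31 ± 0.08 (adjusted p = 0.0213), without overlap. The call was lost under 6 of 18 alternatives, among them the removal of stimulated control replicate 2 or 3 or of any stimulated labelled-knockout library (up to 0.0866).

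Lamp2 was higher in the labelled knockout with palmitate plus LPS by 0.31 ± 0.07 (adjusted p = 0.00477), a call kept under all 18 alternatives. The calls of Lipa, Atp6v0d1, Atp6v1b2, Map1lc3b, Atg5 and Gabarapl1, with sizes between 0.22 and 0.31 in either direction, were each lost under 3 to 11 of 18 alternatives, in each case also without stimulated control replicate 3 and without stimulated labelled-knockout replicate 1 (up to 0.228). With total-count scaling 4 of the 45 were higher and 13 lower, and over all genes 841 were higher and 1580 lower, against 1293 and 788 under TMM. Without vehicle labelled-knockout replicate 1, which is in neither group compared but enters the shared estimate of the spread, 14 were higher and 15 lower, where 17.1% of all genes were higher and 13.9% lower. The 3 autophagy genes called, Map1lc3b, Gabarapl1 and Atg5, were all lower, and the median of the 8 was -0.26, where that of all genes was -0.01.

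**Figure D4:**
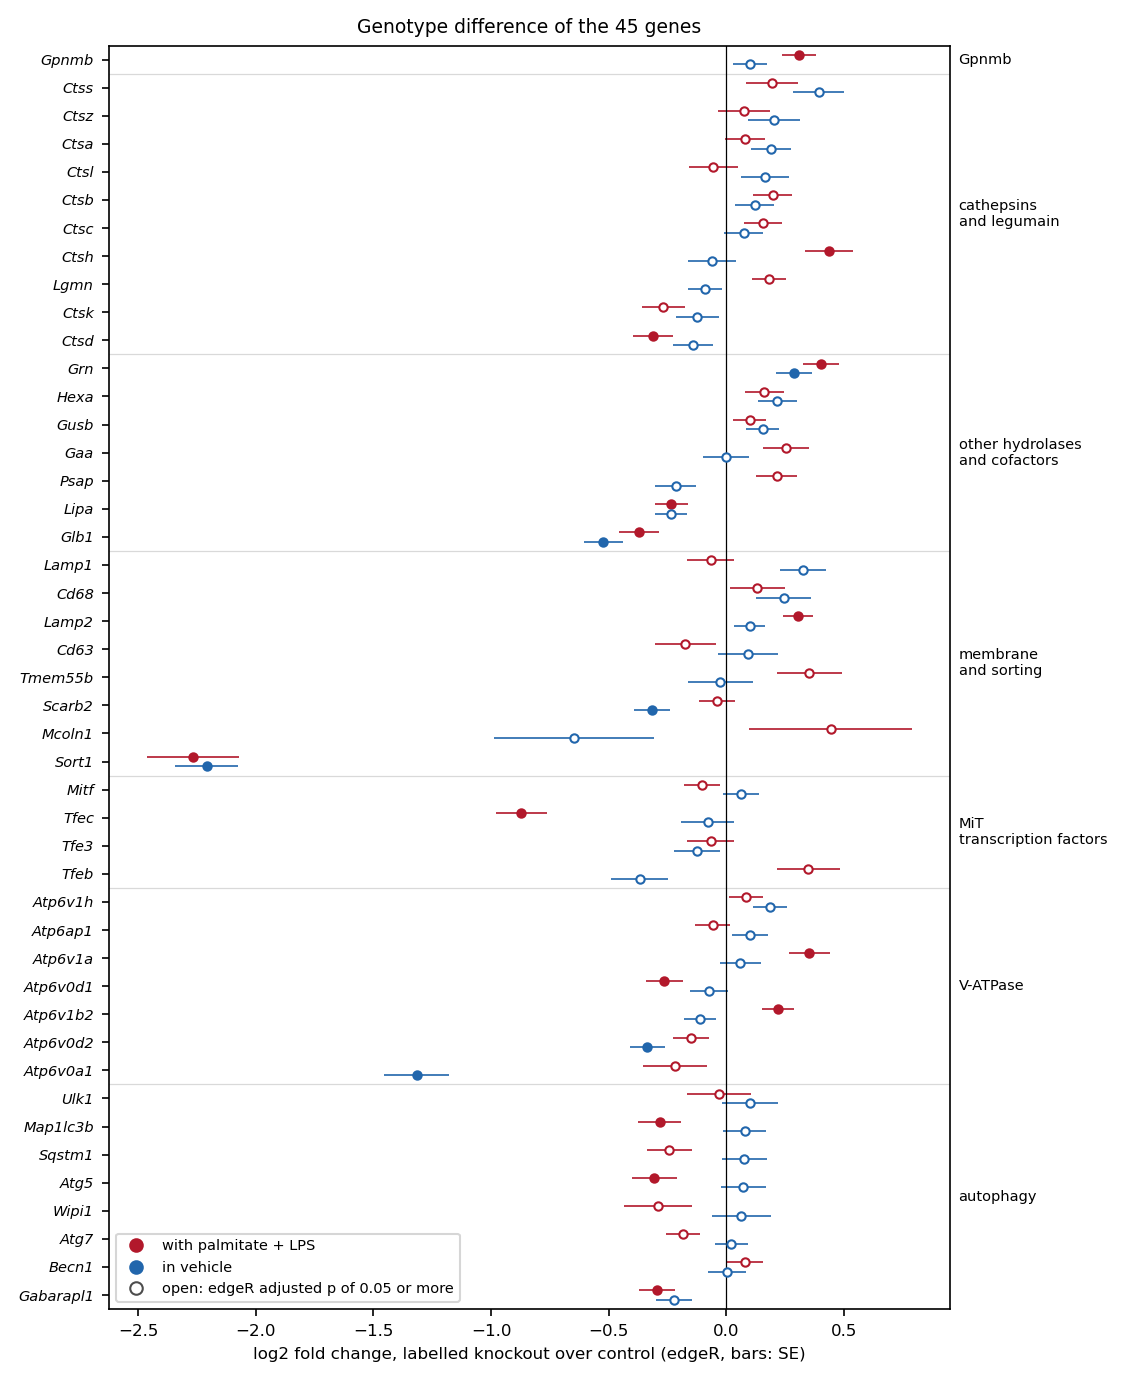
Log2 fold change of each of the 45 genes, labelled knockout over control (horizontal axis, edgeR, bars are standard errors), grouped by role, with the palmitate plus LPS comparison above the vehicle one. Filled points passed an adjusted p of 0.05. Sort1 lies at -2.27 with palmitate plus LPS and -2.21 in vehicle, Atp6v0a1 at -0.22 and -1.32, and Tfec at -0.87 and -0.08.

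Some markers of other cells differed between the genotypes, in the fibroblast and mesothelial, neutrophil and mast cell lists. No tested B cell, eosinophil or dendritic cell marker passed the test between genotypes, and no T or NK cell marker was tested. Of 10 fibroblast and mesothelial markers, 6 were higher in the labelled knockout with palmitate plus LPS and 0 passed the test in vehicle. Their summed level was 199 to 348 normalised CPM in stimulated labelled-knockout and 143 to 167 in stimulated control libraries, and 150.3 to 195 in vehicle labelled-knockout and 117 to 137 in vehicle control libraries. Of 8 neutrophil markers, 5 of which were tested, 2 were higher and 1 lower in the labelled knockout with palmitate plus LPS, and 1 was higher with vehicle. Their sum was 144 to 174 in stimulated labelled-knockout and 107 to 116 in stimulated control libraries, and 111 to 115 in vehicle labelled-knockout and 77.9 to 81.8 in vehicle control libraries. Among these, Ly6g was at 0 in all 12 libraries and S100a9 averaged at most 0.0255, whereas Csf3r and Mmp8 made up most of the sum. Of the 5 mast cell markers, Kit was higher in both treatments (0.90 with palmitate plus LPS and 1.39 with vehicle), with the list's sum at 5.20 to 10.3 in stimulated labelled-knockout and 5.89 to 8.54 in stimulated control libraries, and averaging 5.54 in vehicle labelled-knockout and 6.95 in vehicle control libraries. No other mast cell marker was called. The median of the 4 tested, Kit among them, was -0.58 with palmitate plus LPS and -0.50 with vehicle. The macrophage markers differed in both directions. In stimulated cells Fcgr1, Mertk and Adgre1 were higher and Cd14 and Lyz2 lower in the labelled knockout, and in vehicle Cd14 was higher and Mertk lower. Lyz2 is the locus from which LysM-Cre is driven, and any part of that allele in its counts was not tested. The part of these markers in the genotype differences was not tested.

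The response to palmitate plus LPS differed between the genotypes for 6 of the 45 genes, by the test of the interaction. It was higher in the labelled knockout for 5 (11.1%) and lower for 1 (2.22%), where 4.7% and 3.35% of all tested genes were called. The greatest difference was in Atp6v0a1, at 1.10 ± 0.19 (adjusted p = 0.00371), and was 0.89 without vehicle labelled-knockout replicate 1. Tfec differed by -0.79 ± 0.16 (adjusted p = 0.00757), and these 2 calls held under all 17 alternatives. Tfeb differed by 0.72 ± 0.18 (adjusted p = 0.0256), with a smaller fall in the labelled knockout. Its call was lost under 8 of 17 alternatives, among them the removal of any vehicle control library, of stimulated control replicate 2 or 3 or of stimulated labelled-knockout replicate 2 or 3 (up to 0.0842). Between genotypes, Tfeb stood at -0.37 with vehicle and 0.35 with palmitate plus LPS, and neither was called. Without vehicle labelled-knockout replicate 1 these were -0.24 (not called) and 0.35 (edgeR adjusted p = 0.00642), and the interaction was 0.58. Psap had 10069.8, 8746 and 9154 normalised CPM in stimulated and 15712, 17360.5 and 16993 in vehicle labelled-knockout libraries, and 8053, 8151 and 7903 in stimulated and 17614, 18944 and 21504 in vehicle control libraries. It fell in both genotypes, less so in the labelled knockout (0.43 ± 0.12, adjusted p = 0.0447). Atp6v1b2, a B subunit of the V1 sector, had 678, 659 and 679 in stimulated and 534, 556 and 595 in vehicle labelled-knockout libraries, and 591, 571 and 567 in stimulated and 611, 605 and 603 in vehicle control libraries. It rose by 0.26 in the labelled knockout, a sign that turned under total-count scaling, and stood at -0.07 in controls, a difference of 0.33 ± 0.10 (adjusted p = 0.0451). Ctsh stood at 0.08 in the labelled knockout and fell by 0.42 in controls, a difference of 0.50 ± 0.15 (adjusted p = 0.0481). Without vehicle labelled-knockout replicate 1, Ctsh rose in the labelled knockout (0.22, adjusted p = 0.00635), and under total-count scaling it fell there (-0.28, adjusted p = 0.00289). The interaction calls of Psap, Ctsh and Atp6v1b2 were lost under 10, 13 and 14 of 17 alternatives, among them the removal of any stimulated library (up to 0.119, 0.12 and 0.121).

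Other genes, 143 in all and 139 tested, gave a wider view. Besides other genes of the same pathways, they include a list of 9 osteoclast and multinucleated macrophage genes. With palmitate plus LPS, 29 rose and 73 fell in controls, with a median of -0.29, and 37 rose and 65 fell in the labelled knockout, with a median of -0.24. In controls 20.9% rose and 52.5% fell, where 32% and 34.7% of all tested genes did. The labelled knockout had 26.6% and 46.8%, where all tested genes had 33.7% and 35.6%. Of 35 other hydrolases and cofactors, 3 rose and 25 fell in each genotype. Sgsh, a sulfamidase of heparan sulfate breakdown, averaged 1.39 ± 0.0188 normalised CPM in stimulated and 24.3 ± 1.02 in vehicle control libraries (SD, n = 3 each), and fell by 4.12 in controls and 3.87 in the labelled knockout. The phospholipase Pla2g15 (-1.49 in controls and -1.60 in the labelled knockout) and Manba, which cuts mannosides (-2.02 and -1.85), fell as well. Acp5, the tartrate-resistant acid phosphatase of osteoclasts, rose in both genotypes, by 2.54 in controls. It is also in the osteoclast and multinucleated macrophage list, of which 6 genes were tested. Of these, Acp5 and Mmp9 rose in both genotypes, and Itgb3, Nfatc1 and Tnfrsf11a fell in both. Dcstamp was called lower in the labelled knockout only. The median of the 6 was -0.29 in controls and -0.89 in the labelled knockout. The cholesterol carrier Npc2 rose by 0.52 in controls and 0.59 in the labelled knockout. Of 29 membrane, transport and sorting genes, 5 rose and 15 fell in controls, and 9 rose and 12 fell in the labelled knockout. The chloride transporter Clcn7 rose by 1.34 and 1.86 and the sialomucin Cd164 by 1.14 and 1.89, whereas the two-pore channel Tpcn1 (log2 -3.50 in controls and -3.64 in the labelled knockout) and the sialic acid exporter Slc17a5 (-1.06 and -1.27) fell.

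Of the 11 other V-ATPase genes, 5 rose and 1 fell in controls, and 5 rose and 3 fell in the labelled knockout. Atp6v1e1, of the stalk, rose by 1.41 and 1.11, and Atp6v1c1 fell by 1.03 and 0.71. Of 17 tested genes of mTORC1 signalling on the lysosome, 5 rose and 9 fell in controls, and 6 rose and 7 fell in the labelled knockout. The small GTPase Rheb rose by 0.68 and 0.82, and the Rag GTPase Rragd, a known MiT target, fell by 2.25 and 2.41. Of 39 other autophagy genes, 8 rose and 19 fell in controls, and 12 rose and 13 fell in the labelled knockout. The cargo receptor Optn rose by 1.12 and 1.62, and Tecpr1, a tether of autophagosomes to lysosomes, fell by 2.07 and 1.65. The largest rise of the pathway genes was in Cst7, an inhibitor of cysteine cathepsins, which averaged 57.3 ± 0.983 normalised CPM in stimulated against 0.311 ± 0.066 in vehicle control libraries and 68.2 ± 10.4 in stimulated against 0.517 ± 0.14 in vehicle labelled-knockout libraries (SD, n = 3 each). Of the other inhibitors, Cst3 fell by 0.29 and 0.51, and Cstb rose by 0.38 in controls and stood at -0.01 in the labelled knockout.

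Between genotypes, 3 of the 139 were higher and 4 lower in the labelled knockout with vehicle, and 21 were higher and 8 lower with palmitate plus LPS. With vehicle that was 2.16% and 2.88%, against 2.12% and 1.69% of all tested genes. With palmitate plus LPS it was 15.1% and 5.76%, against 10% and 6.1%. Of the osteoclast and multinucleated macrophage list, Dcstamp was higher and Mmp9 lower with vehicle, and Acp5 and Dcstamp were lower with palmitate plus LPS. Pla2g15 was lower in both treatments (-0.57 with palmitate plus LPS and -0.46 with vehicle). In stimulated cells, Cd164 was higher by 0.59, Mfsd8, a lysosomal transporter, by 0.62 and Atg13, a partner of Ulk1, by 0.69, whereas the thioesterase Ppt2 was lower (-0.63). The interaction was called for 14 of the 139, higher for 12, led by Cd164 (0.75), Tpcn2 (0.62) and Mfsd8 (0.71). It was lower for Lamtor4 (-0.76) and, from the osteoclast list, Dcstamp (-0.76). These were 8.63% higher and 1.44% lower, against 4.7% and 3.35% of all tested genes.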

How the data were processed

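The authors deposited, for each library, a table of raw counts per gene with exon coordinates. The deposited CPM divides each count by the sum of its library, and the deposited RPKM further divides by exon length, both as recomputed from the files. GRCm38, STAR 2.0.4b, featureCounts 1.45 (with Subread) and bcl2fastq 2.0 appear in the submitters' processing notes. No source used here gives the options, annotation or strandedness. Per the labels' protocols, RNA came off Ambion columns and the libraries are Clontech SMARTer v1.

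Counts were tested with edgeR 4.0.16 (R 4.3.3): filterByExpr by group, TMM scaling, and the robust quasi-likelihood F-test over all 12 libraries with 1 mean per group, with Benjamini-Hochberg adjustment over 12914 genes (at least 99.9% of each library's counts) and a threshold of 0.05. Values are log2 fold changes ± SE and TMM-normalised CPM. Levels were ordered between genes by normalised CPM per kilobase of exon. The script was tested on simulated data. Alternatives were RLE factors, total-count scaling, no filter, DESeq2 1.42.0, only the groups compared, a replicate block, and removal of each library.

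The genes and lists were chosen with earlier results of these data known. Values in every library are given for Gpnmb, Sort1, the MiT factors, and up to 4 called genes per direction and comparison with groups that do not overlap. Up to 5 were named for the interaction. Others are named by role. Genes of the other lists have the smallest p-values. Symbols came from a table of gene names, which matched 40254 of the IDs.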

Additional observations from a re-analysis of the deposited data

Results flagged for a closer look

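The response to palmitate plus LPS differed between the labelled knockout and the controls, by edgeR's test of the interaction, for 6 of the 45 genes. The log2 difference was 1.10 for Atp6v0a1, 0.72 for Tfeb, 0.50 for Ctsh, 0.43 for Psap, 0.33 for Atp6v1b2 and -0.79 for Tfec. For Atp6v0a1 the labelled knockout and the controls differed in vehicle, and for Tfec with palmitate plus LPS.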

How the results depend on the processing

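Counts of the 45 genes that moved by more than 1.5 times are given by setting. For genotype in vehicle (1 higher, 5 lower, 492 of all genes), total-count scaling gave 2 higher, no filter on low counts 3 higher, 8 lower and 960 of all genes, DESeq2 3 higher, and fitting only the groups compared 0 higher, 3 lower and 229 of all genes. For genotype with palmitate plus LPS (6 higher, 9 lower, 2081 of all genes), only the groups compared gave 14 higher, 15 lower and 3810 of all genes. For treatment in the labelled knockout (9 higher), total-count scaling gave 4 higher. For the interaction (5 higher, 1 lower, 1040 of all genes), RLE factors gave 2 higher, total-count scaling 3 higher and 4 lower, and no filter 2 lower and 1875 of all genes.

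Removal of 1 library gave 0 to 2 higher, 3 to 9 lower and 261 to 788 of all genes for genotype in vehicle, 4 to 14, 3 to 15 and 1227 to 4081 for genotype with palmitate plus LPS, 7 to 8, 26 to 30 and 8009 to 9542 for treatment in controls, 9 to 10, 28 to 30 and 8441 to 9362 for treatment in the labelled knockout, and 1 to 6, 1 to 3 and 428 to 1962 for the interaction.

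The labels do not say whether a shared replicate number marks a shared batch. Correlations of deviations ran between -0.309 and 0.067 for libraries of the same number. They ran between -0.181 and 0.271 for those of different numbers. No pairing by number was seen, but deviations around means of 3 libraries cannot exclude it. With a replicate block, genotype in vehicle gave 0 higher and 3 lower, genotype with palmitate plus LPS 4 lower, and the interaction 2 higher and 515 of all genes.

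The sign turned for Mitf under total-count scaling (-0.07 in controls and -0.27 in the labelled knockout), for the Sort1 interaction between -0.23 and 0.15 and the Tfe3 interaction between -0.05 and 0.13 over libraries left out, and for Tfec in vehicle between -0.14 and 0.03. None of these 3 last differences was called. The causes were not tested. Depth limits Sort1 most, with 49 counts in the stimulated labelled knockout.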
